A study of Rattus norvegicus with 6 samples.

Results

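The genes described here are the amino acid, glucose and monocarboxylate transporters of 9 solute carrier families, Slc1, Slc2, Slc3, Slc5, Slc6, Slc7, Slc16, Slc38 and Slc43. They were taken by name, as every symbol in the deposited tables made of 1 of these family prefixes, an "a" and a number, which gave 93 of 29468 symbols and used no measured value. Expression was measured by RNA-seq in Schwann cell precursors (SCPs) and repair Schwann cells (RSCs) of wild type LEWIS rats, with 3 preparations per group. The study's methods, however, take its grafted cells from transgenic LEWIS rats that express a red fluorescent protein. They name no separate donor for the cells used for RNA. SCPs were dissociated from the bilateral sciatic nerves and brachial plexus of untreated embryos at embryonic day 14. RSCs were dissociated from the distal stump of the sciatic nerve of rats 10 weeks old, 1 week after the nerve had been cut. Age, nerve, injury and dissociation therefore differed together between the groups and cannot be told apart. The sources used here do not say whether the preparations of a group came from separate litters or animals, so p-values measure the spread between preparations. The study's methods describe the removal of cells that stick quickly to plastic, such as fibroblasts and macrophages, from its preparations. No sort for Schwann cells is described for the RNA. By Sox10 immunolabelling, the study reports that most SCPs and most RSCs were positive, as counted on cultured cells.

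Solute carriers move nutrients across membranes. Slc3a2 (CD98, also 4F2hc) is a heavy chain that brings light chains of the Slc7 family to the cell surface, where they exchange 1 amino acid for another. The Slc1 family holds the glutamate transporters and the exchangers of small neutral amino acids, Slc38 carries glutamine and similar amino acids with sodium, Slc6 carries neurotransmitters, taurine, creatine and glycine, and Slc43 carries branched-chain amino acids and purine bases. Glucose enters through the facilitators of Slc2, and lactate and pyruvate move with protons through Slc16 carriers, which need the chaperones Bsg or Emb to reach the surface. Glia of peripheral nerve are known to take up glucose and to hand lactate to axons.

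Levels are given in FPKM (fragments per kilobase of transcript, relative to all mapped fragments), summed over the named transcripts of a symbol, so levels of different genes are compared per length. Fold changes are differences of log2(FPKM + 1), RSC minus SCP, from limma. Adding 1 understates the change of genes with low values. A gene was called at an unadjusted p under 0.01, and over 4-fold where its log2 fold change also passed 2 in either direction. These are the thresholds of the study. The Benjamini-Hochberg method was used to adjust p over the 13003 genes tested. Beside the named transcripts, each table holds transcripts without a gene name that Cufflinks assembled in that sample, which took 26.1% to 31.9% of all FPKM in SCPs and 18.6% to 23.4% in RSCs. Where counting the unnamed transcripts of the same Cufflinks gene changed a described gene's call, its direction or its side of the 4-fold threshold, the value with them stands beside it. A value of 0 can be a failed estimate, or the signal can lie in unnamed transcripts. None of the 257 named transporter transcripts was marked as failed in any sample. Erbb3, a neuregulin receptor of the Schwann lineage, was listed at 0 in SCP replicate 1 and RSC replicate 2 against 31.6 FPKM or more in the other 4.

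The lineage marker Sox10 stood at 175 to 181 FPKM in SCPs and 143 to 149 FPKM in RSCs. The marker counts that follow stand beside 18.1% of all tested genes called higher in RSCs and 22.4% called higher in SCPs. Among leukocyte markers, 14 of 16 tested were higher in RSCs and none in SCPs, with a summed level of 28.5 to 75.0 FPKM in SCPs and 3170 to 3983 FPKM in RSCs. Cd3e and S100a8 were listed at 0 in all SCP samples. The macrophage receptor Csf1r stood at 1.48 to 3.83 FPKM in SCPs and 54.4 to 83.8 FPKM in RSCs, and Ptprc (CD45) at 0.193 to 0.758 and 7.33 to 11.9 FPKM. Fibroblast markers were higher in RSCs for 7 of 9, with summed levels of 643 to 1023 FPKM against 5421 to 8029 FPKM and none at 0. Genes of the dissociation response were higher in RSCs for 15 of 17. Erythroid markers were higher in SCPs for 9 of 11, with sums of 31554 to 135590 FPKM against 1869 to 2475 FPKM, where Hbe1 and Hbz were listed at 0 in all RSC samples and Alas2 in all SCP samples. Skeletal muscle markers were higher in SCPs for 10 of 14 and in RSCs for 1, with sums of 129 to 509 against 39.2 to 49.4 FPKM, Myod1 and Myf5 being listed at 0 in RSCs. Neuronal markers were higher in SCPs for 3 of 8, with sums of 40.9 to 69.1 against 24.6 to 35.5 FPKM. Perineurial markers were higher in RSCs for 3 of 4 and in SCPs for 1, while their summed level was higher in SCPs (236 to 287 FPKM against 35.8 to 41.1 FPKM), with Lypd2 and Slc22a6 listed at 0 in all samples, and endothelial and mural markers were higher in RSCs for 2 of 15, with sums of 123 to 348 FPKM in SCPs and 232 to 307 FPKM in RSCs, where Rgs5 was listed at 0. The part of these cells in the results below was not tested. In bulk RNA, fewer cells of a type and less RNA per cell cannot be told apart.

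Transporter genes were mostly higher in RSCs where they differed. Of the 93 genes, 42 reached a mean of 1 FPKM and were tested. Among the 42, 15 were called higher in RSCs, or 35.7%, where 18.1% of all tested genes were. Only 3 of the 42 were called higher in SCPs, or 7.14%, where 22.4% of all tested genes were. The remaining 24 were not called. Over 4-fold, 8 were higher in RSCs (19.0%, against 7.81% of all tested genes) and 1 in SCPs (2.38%, against 3.78%). The samples of the groups did not overlap for 27 of the 42, or 64.3%, which is near the 58.6% of all tested genes. The median log2 fold change was 0.68, against -0.17 over all tested genes. Scaling by median of ratios moved the median of all genes by 0.19 and turned their split from 2351 higher in RSCs and 2917 in SCPs to 2773 and 2174, while the transporter genes gave 15 and 2. A gene with a mean near 1 FPKM enters these counts only if it is high in some group, so the counts describe the genes that passed and not the families as a whole.

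**Figure D1:**
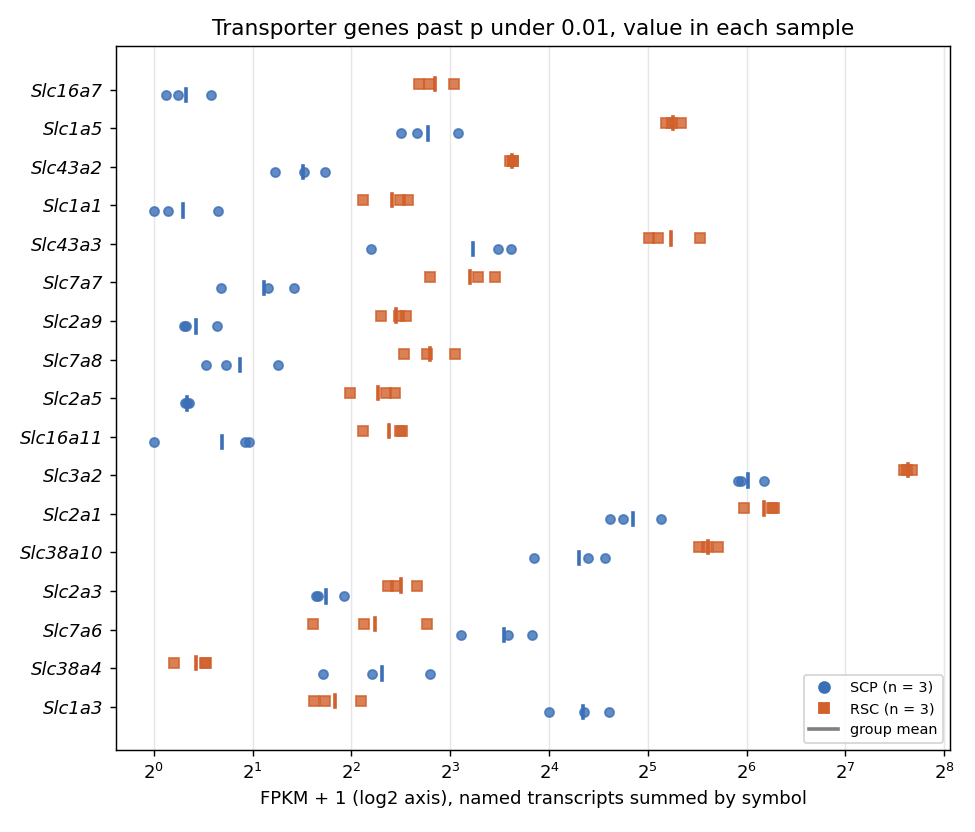
FPKM + 1 on a log2 axis for 17 transporter genes past p under 0.01, with 1 point per sample (circles, SCP, n = 3; squares, RSC, n = 3) and a short line at each group mean. Choice by p on these same values favours genes whose groups do not overlap, as in all 17. In 14 of them the RSC points lie to the right.

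With unnamed transcripts counted, 46 transporter genes were tested, 20 were higher in RSCs (43.5%, against 23.2% of 14019 genes) and 8 in SCPs (17.4%, against 34.2%), and the groups did not overlap for 38 (82.6%, against 72.4%). Over 4-fold, 8 were then higher in RSCs (17.4%, against 8.57%) and 3 in SCPs (6.52%, against 4.58%). The median log2 fold change was then 0.35, against -0.24 over all tested genes. The 93 genes together summed to 390, 324 and 354 FPKM in SCP replicates 1, 2 and 3 and to 638, 677 and 619 FPKM in RSC replicates 1, 2 and 3. All RSC sums were above all SCP sums, and this held with unnamed transcripts (482 to 526 against 733 to 777 FPKM).

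The heavy chain Slc3a2, at chr1:224906566-224921029 of rn6, was the transporter gene with the highest mean level of all 93. It stood at 60.6, 59.1 and 71.2 FPKM in SCPs and at 197, 192 and 204 FPKM in RSCs. Every RSC sample was far above every SCP sample, with means of 198 ± 5.67 FPKM in RSCs and 63.6 ± 6.57 FPKM in SCPs (SD, n = 3), a ratio of 3.11. The log2 fold change was 1.62 (SE 0.09, limma adjusted p = 7.6e-05). Its light chains did not move together. Slc7a7 (y+LAT1, chr15:33013353-33059739), which exports cationic amino acids in exchange for neutral ones and is known in macrophages and kidney, stood at 1.23, 1.68 and 0.598 FPKM in SCPs and 5.94, 9.97 and 8.76 FPKM in RSCs, a log2 fold change of 2.09 (SE 0.29, limma adjusted p = 0.0022). Slc7a8 (LAT2), an exchanger of neutral amino acids, stood at 0.440, 0.659 and 1.39 FPKM in SCPs and 4.78, 7.26 and 5.78 FPKM in RSCs, with a log2 fold change of 1.94, and 2.12 with unnamed transcripts. For both genes the groups were well apart. Slc7a6 (y+LAT2) went the other way, with 11.0, 13.2 and 7.64 FPKM in SCPs and 2.05, 5.78 and 3.38 FPKM in RSCs. Its log2 fold change was -1.34 (SE 0.35, limma unadjusted p = 0.0092, adjusted p = 0.023), close to the threshold, and the call was lost in 10 of 17 other settings, among them 5 of the 6 in which 1 sample was left out. The log2 fold change was -0.97 with unnamed transcripts (unadjusted p = 0.0005). Slc7a5 (LAT1), which imports large neutral amino acids such as leucine and had the highest mean level of the Slc7 family, stood at 7.31, 7.79 and 10.4 FPKM in SCPs and 11.6, 10.7 and 11.3 FPKM in RSCs. The groups did not overlap, but the log2 fold change of 0.38 (SE 0.17) was not called (limma unadjusted p = 0.064). Slc7a11 (xCT), which takes up cystine, stayed at or below 0.355 FPKM in every sample and was not tested, and Slc7a9 and Slc7a10 were listed at 0 throughout. Of the cationic carriers that need no heavy chain, Slc7a1 (CAT-1), which imports arginine, stood at 2.91, 1.98 and 2.14 FPKM in SCPs and 3.61, 3.15 and 3.15 FPKM in RSCs, apart but not called (log2 fold change 0.37, limma unadjusted p = 0.12).

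The level of Slc3a2 exceeded the summed level of its 6 known light chains (Slc7a5, Slc7a6, Slc7a7, Slc7a8, Slc7a10 and Slc7a11) in every sample. The light chain sum was 20.1, 23.5 and 20.1 FPKM in SCPs and 24.7, 33.9 and 29.4 FPKM in RSCs. The ratio of heavy chain to light chains was 3.01, 2.51 and 3.54 in SCPs and 7.96, 5.67 and 6.93 in RSCs, without overlap. With unnamed transcripts it was 2.40 to 3.18 in SCPs and 5.67 to 6.38 in RSCs. Slc7a5 held 33.1% to 51.7% of the light chain FPKM in SCPs and 31.7% to 46.9% in RSCs, where the ranges overlapped.

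**Figure D2:**
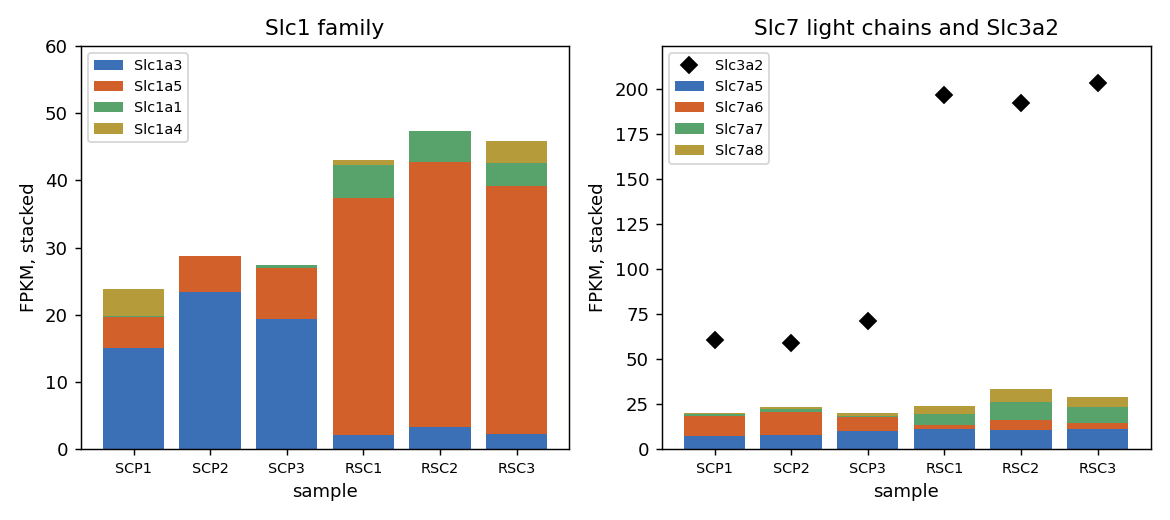
FPKM in each of the 6 samples as stacked bars, with the 4 tested Slc1 genes on the left and the 4 tested Slc7 light chains on the right, where diamonds mark Slc3a2 on the same axis. Slc1a3 fills most of each SCP bar and Slc1a5 most of each RSC bar, and Slc3a2 stands above its light chains in every sample, most clearly in RSCs.

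Promoter sequences are shown for Slc3a2, Slc7a7 and Slc7a5 because heavy and light chains did not move together, and for 3 genes holding an amino acid response element because starvation signalling through Atf4 is known to act on such elements in transporter genes. RefSeq promoters of the GRCr8 assembly, 250 bases before to 50 after each gene start, were found for 67 of the 93 genes. Letters searched on both strands were TGACNNNGC (antioxidant response element, the site of Nrf2), CACGTG (E-box), TGATGNAA (amino acid response element) and TGANTCA (AP-1 site). Capitals mark the match, and each line reads 5′ to 3′ on the strand of the gene, so a match on the other strand appears as its reverse complement. The coordinates are those of GRCr8, not of the expression tables.
Slc3a2, antioxidant response element, chr1:215039677-215039745, minus strand: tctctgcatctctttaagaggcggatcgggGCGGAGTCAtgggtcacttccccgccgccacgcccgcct
Slc7a7, antioxidant response element, chr15:31835837-31835905, minus strand: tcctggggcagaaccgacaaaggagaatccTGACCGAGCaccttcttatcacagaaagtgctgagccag
Slc7a5, E-box, chr19:66872556-66872621, minus strand: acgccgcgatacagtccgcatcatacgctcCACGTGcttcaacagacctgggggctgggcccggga
Slc1a4, amino acid response element, chr14:98761760-98761812, minus strand: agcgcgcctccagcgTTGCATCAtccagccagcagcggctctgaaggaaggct
Slc7a1, amino acid response element, chr12:11664428-11664487, plus strand: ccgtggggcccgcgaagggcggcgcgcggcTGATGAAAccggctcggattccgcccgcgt
Slc38a1, amino acid response element, chr7:129681506-129681573, minus strand: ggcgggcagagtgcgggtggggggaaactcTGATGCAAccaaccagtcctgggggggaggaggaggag

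The antioxidant response element letters were in the promoters of 10 of the 67 genes, against 12.1% of all 33469 promoters, and those of 2 of the 9 genes called higher in RSCs with a promoter, Slc3a2 and Slc7a7, held them. Slc3a2 has a second listed promoter without these letters. The E-box letters were in 10 genes (6.42% of all promoters), none of them called, the amino acid response element in 3 (3.98%), none of them called, and the AP-1 letters in 10 (7.33%), none of them called. The AP-1 letters can overlap those of the antioxidant response element. A gene with several listed promoters counts once here, while the shares are over single promoters. These matches are descriptions of the letters only.

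Genes of the Slc1 family changed in opposite directions. Slc1a3 (GLAST), the glutamate transporter of many glia, at chr2:57860881-57935363, stood at 15.0, 23.4 and 19.4 FPKM in SCPs and 2.08, 3.28 and 2.33 FPKM in RSCs. It was 7.52 times higher in SCPs by group means, with a log2 fold change of -2.50 (SE 0.23, limma adjusted p = 0.00041). On the scale of log2(FPKM + 1) it was the 1 gene of the families over 4-fold higher in SCPs on named transcripts. Slc38a4, also called higher in SCPs, had a larger ratio of group means, 11.5. Slc1a5 (ASCT2), an exchanger that imports glutamine, at chr1:78710686-78724789, stood at 4.65, 5.34 and 7.48 FPKM in SCPs and 35.3, 39.4 and 36.9 FPKM in RSCs. Its log2 fold change was 2.51 (SE 0.18, limma adjusted p = 0.00018), and 1.67 with unnamed transcripts, which raised the SCP values to 12.7, 9.50 and 11.0 FPKM and left the RSC values as they were. The makeup of the family turned over, with Slc1a3 at 69.2% ± 9.40 of the family's FPKM in SCPs and 5.60% ± 1.13 in RSCs, and Slc1a5 at 21.0% ± 4.46 and 81.7% ± 1.41 (SD, n = 3). With unnamed transcripts these shares were 57.9% and 5.97% for Slc1a3, and 26.5% and 71.7% for Slc1a5.

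Slc1a1 (EAAC1), a carrier of glutamate and cysteine at chr1:246955017-247035159, was low or listed at 0 in SCPs, with 0.107, 0 and 0.564 FPKM, and stood at 4.93, 4.64 and 3.34 FPKM in RSCs. The groups were apart, with a log2 fold change of 2.13 (SE 0.28, limma adjusted p = 0.0016). Slc1a4 (ASCT1), an exchanger of alanine, serine and cysteine, was listed at 0 in 3 of 6 samples, and with unnamed transcripts stood at 4.11 to 6.48 FPKM in SCPs and 3.26 to 5.14 FPKM in RSCs, with no call. Slc1a2 (GLT-1), the main glutamate transporter of astrocytes, did not exceed 0.172 FPKM. Slc1a6 (EAAT4) stood at 0.616, 0.629 and 0.811 FPKM in SCPs and was listed at 0 in all RSC samples.

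Among the Slc38 glutamine carriers, the level of the whole family overlapped between the groups, at 163, 132 and 120 FPKM in SCPs and 151, 155 and 126 FPKM in RSCs. Slc38a2 (SNAT2), which takes up glutamine and alanine and is known to rise in amino acid shortage, was its most abundant gene. It stood at 108, 90.6 and 68.1 FPKM in SCPs and 66.8, 68.8 and 51.3 FPKM in RSCs, overlapping narrowly, with a log2 fold change of -0.50 (SE 0.20) that was not called (limma unadjusted p = 0.051). With unnamed transcripts the groups were apart and the gene was called higher in SCPs, by 0.47 on the log2 scale (unadjusted p = 0.0059). Slc38a10, an intracellular member of the family at chr10:109284054-109333908, stood at 13.4, 20.0 and 22.7 FPKM in SCPs and 44.7, 51.5 and 47.5 FPKM in RSCs. It was called higher in RSCs, with a log2 fold change of 1.34 (SE 0.20, limma adjusted p = 0.0028), and its share of the family was 14.1% ± 5.41 in SCPs and 33.6% ± 4.08 in RSCs, while that of Slc38a2 was 64.0% ± 6.37 and 43.2% ± 2.07 (SD, n = 3).

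Slc38a4 (SNAT4), known from liver and muscle and as an imprinted gene, was called higher in SCPs. It stood at 3.62, 2.27 and 5.95 FPKM there and at 0.447, 0.153 and 0.431 FPKM in RSCs, with a log2 fold change of -1.82 (SE 0.33, limma adjusted p = 0.0062), and -2.54 with unnamed transcripts. Slc38a1 (SNAT1), which takes up glutamine, overlapped between the groups, at 24.4, 10.1 and 12.4 FPKM in SCPs and 26.0, 22.7 and 12.6 FPKM in RSCs. The lysosomal arginine sensor Slc38a9 stood at 2.85, 3.78 and 3.35 FPKM in SCPs and 4.31, 4.68 and 6.53 FPKM in RSCs, apart but not called (log2 fold change 0.50, limma unadjusted p = 0.059). With unnamed transcripts its SCP values were 3.92, 4.78 and 3.35 FPKM, the groups overlapped and the log2 fold change was 0.29. Slc38a7, a lysosomal exporter of glutamine, was listed at 0 in SCP replicate 2 and not called on named transcripts. With unnamed transcripts it stood at 6.33, 6.28 and 6.51 FPKM in SCPs and 10.6, 13.2 and 11.1 FPKM in RSCs and was called (log2 fold change 0.77, limma unadjusted p = 0.00048). Slc38a6 stood at 0.824 to 3.75 FPKM in SCPs and 0.888 to 2.03 FPKM in RSCs, with no call.

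The Slc43 genes split by group. Slc43a2 (LAT4), a carrier of branched-chain amino acids at chr10:63676328-63719283, stood at 1.34, 2.32 and 1.86 FPKM in SCPs and 11.4, 11.4 and 11.1 FPKM in RSCs, with a log2 fold change of 2.13 (SE 0.19, limma adjusted p = 0.0004). With unnamed transcripts, which there overlap the gene Scarf1 as well, it was 1.66 and below 4-fold. Slc43a3, a carrier of purine bases at chr3:72328906-72351039, stood at 11.3, 3.58 and 10.2 FPKM in SCPs and 31.3, 45.2 and 33.4 FPKM in RSCs, with a log2 fold change of 2.12 (SE 0.41, limma adjusted p = 0.0074). With unnamed transcripts SCP replicate 2 stood at 11.9 FPKM and the log2 fold change was 1.53, below 4-fold. Without RSC replicate 2 the gene was no longer called. Slc43a1 (LAT3), the other carrier of branched-chain amino acids, is known to be needed for haemoglobin synthesis in erythroid cells. Its named transcripts stood at 7.84, 0 and 4.69 FPKM in SCPs and 0.725, 1.07 and 1.05 FPKM in RSCs and gave no call. With unnamed transcripts it stood at 14.6, 13.3 and 16 FPKM in SCPs and at the same RSC values, a log2 fold change of -3.0 (SE 0.15, limma adjusted p = 1e-05), the largest in favour of SCPs among the tested transporter genes in that count. Its share of the Slc43 FPKM was then 46.3% ± 3.45 in SCPs and 1.71% ± 0.10 in RSCs (SD, n = 3). The summed erythroid markers, which are also higher in SCPs, were 35590, 31554 and 135590 FPKM in SCP replicates 1, 2 and 3, and their part in this result was not tested.

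Among the neurotransmitter and amino acid symporters of Slc6, the GABA carrier Slc6a11 (GAT-3) was listed at 0 in RSC replicate 2 and overlapped between the groups. With unnamed transcripts Slc6a11 stood at 1.19, 1.02 and 1.77 FPKM in SCPs and 3.66, 7.79 and 4.77 FPKM in RSCs and was called (log2 fold change 1.42, limma unadjusted p = 0.0015). Slc6a13 (GAT-2) stood at 0.491 to 0.706 FPKM in SCPs and 0.929 to 1.98 FPKM in RSCs, apart but not called.

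Several Slc6 genes rested on how transcripts were named. Slc6a8, the creatine transporter and the Slc6 gene with the highest mean level, stood at 20.1, 0 and 11.7 FPKM in SCPs and 13.8, 9.39 and 8.99 FPKM in RSCs, with no call. With unnamed transcripts it stood at 20.1, 37.8 and 29.6 FPKM in SCPs and 13.8, 15.5 and 15.9 FPKM in RSCs, and it was then called higher in SCPs (log2 fold change -0.87, limma unadjusted p = 0.0065). The groups did not overlap in that count. Slc6a6, the taurine transporter, was 0, 4.81 and 3.49 FPKM in SCPs and 12.4, 23.2 and 8.42 FPKM in RSCs, apart but not called (log2 fold change 2.29, SE 0.74, limma unadjusted p = 0.022). With unnamed transcripts, which also overlap LOC102548902, its log2 fold change was 1.15 and just called (unadjusted p = 0.009). Slc6a9 (GlyT1), a glycine transporter used by glia and by erythroid cells for haem synthesis, stood at 3.64, 2.29 and 5.95 FPKM in SCPs and 1.61, 0.701 and 0 FPKM in RSCs. It was not called on named transcripts (limma unadjusted p = 0.016). With unnamed transcripts, which there also overlap the gene Ccdc24, it was called at -1.43 on the log2 scale (limma unadjusted p = 0.00051). Slc6a17, a carrier of neutral amino acids in synaptic vesicles, stood at 1.19 to 2.18 FPKM in SCPs and 0.673 to 0.943 FPKM in RSCs, apart but not called.

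Of the 9 Slc2 facilitators tested, 4 were called, all higher in RSCs, where 18.1% of all tested genes were. Slc2a1 (GLUT1), the carrier of basal glucose uptake, at chr5:138154677-138182897, stood at 34.1, 25.9 and 23.5 FPKM in SCPs and 76.8, 75.7 and 61.9 FPKM in RSCs. The groups were well apart, with a ratio of means of 2.57 and a log2 fold change of 1.34 (SE 0.17, limma adjusted p = 0.0014). Its share of the family was alike in both groups on named transcripts, at 66.7% ± 10.6 in SCPs and 69.4% ± 5.03 in RSCs (SD, n = 3), but 41.4% and 62.6% with unnamed ones. Slc2a3 (GLUT3), a carrier of high affinity known from neurons and leukocytes, stood at 2.80, 2.11 and 2.16 FPKM in SCPs and 5.35, 4.16 and 4.46 FPKM in RSCs. Its log2 fold change was 0.75 (SE 0.20, limma unadjusted p = 0.0088, adjusted p = 0.022), and it was no longer called when any 1 sample was left out.

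The other Slc2 genes called were low in SCPs. Slc2a9 (GLUT9), a urate carrier at chr14:77067552-77192702, stood at 0.240, 0.555 and 0.253 FPKM in SCPs and 4.59, 4.87 and 3.91 FPKM in RSCs, with a log2 fold change of 2.02 (SE 0.22, limma adjusted p = 0.00079). Slc2a5 (GLUT5), the fructose carrier, which is known from microglia, stood at 0.262, 0.245 and 0.276 FPKM in SCPs and 2.97, 4.42 and 4.10 FPKM in RSCs. Its log2 fold change was 1.93, and 2.1 with unnamed transcripts, which there also overlap LOC103692515. Slc7a7 and Slc2a5 are genes known from macrophages or microglia, and the leukocyte markers Csf1r and Tyrobp had log2 fold changes of 4.2 and 4.51. The part of leukocytes in the changes of Slc7a7 and Slc2a5 was not tested. Slc2a4 (GLUT4), the insulin-regulated carrier of muscle and fat, stood at 3.13, 0 and 0 FPKM in SCPs and 2.90, 1.17 and 2.03 FPKM in RSCs and was not called. With unnamed transcripts its direction turned, with 3.13, 8.03 and 6.71 FPKM in SCPs, and it was again not called (limma unadjusted p = 0.015). Slc2a8, an intracellular hexose carrier, overlapped between the groups in both counts, as did Slc2a12, while Slc2a10 and Slc2a13, which carries myo-inositol, were not called in either. Of the 12 sodium-coupled carriers of Slc5, only the myo-inositol carrier Slc5a3 was tested. It stood at 0.612, 2.57 and 1.45 FPKM in SCPs and 3.90, 3.81 and 4.13 FPKM in RSCs, apart but not called (log2 fold change 1.03, limma unadjusted p = 0.020).

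Among the monocarboxylate carriers, 2 of 5 tested genes were called, both higher in RSCs, where 18.1% of all tested genes were. Slc16a7 (MCT2), a carrier with high affinity for pyruvate and lactate, at chr7:68445819-68606295, stood at 0.186, 0.492 and 0.0926 FPKM in SCPs and 5.44, 5.90 and 7.20 FPKM in RSCs. It was 24.1 times higher in RSCs by group means, with a log2 fold change of 2.52 (SE 0.23, limma adjusted p = 0.00043). Slc16a11, a carrier linked to pyruvate and lipid metabolism, stood at 0.890, 0.952 and 0 FPKM in SCPs and 3.34, 4.72 and 4.61 FPKM in RSCs, with a log2 fold change of 1.75 (SE 0.34, limma adjusted p = 0.0073). It was not called at a pseudocount of 0.1. Counting unnamed transcripts gave 14.3, 6.68 and 12.6 FPKM in RSCs and a log2 fold change of 2.52. Slc16a1 (MCT1), the main lactate carrier of peripheral nerve glia, had most of its FPKM in unnamed transcripts. Its named transcripts stood at 0, 3.36 and 5.18 FPKM in SCPs and 0, 0 and 3.57 FPKM in RSCs, with no call and a log2 fold change of -0.85. With unnamed transcripts it stood at 17.9, 15.9 and 16.7 FPKM in SCPs and 25.8, 23.6 and 24.2 FPKM in RSCs. The direction turned and the gene was called higher in RSCs (log2 fold change 0.52, SE 0.09, limma unadjusted p = 0.001).

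The remaining Slc16 genes gave no call. Slc16a13, which lies beside Slc16a11 on chromosome 10, stood at 6.72, 8.95 and 8.71 FPKM in SCPs and 7.46, 4.28 and 4.83 FPKM in RSCs (log2 fold change -0.51, limma unadjusted p = 0.078). Slc16a3 (MCT4), which exports lactate from glycolytic cells, was listed at 0 in all 6 samples, as was Slc16a6. The chaperone Bsg (basigin) stood at 275, 255 and 237 FPKM in SCPs and 363, 373 and 404 FPKM in RSCs, a log2 fold change of 0.57 (SE 0.08, limma adjusted p = 0.0023). Emb (embigin) stood at 8.71, 1.29 and 5.29 FPKM in SCPs and 16.8, 15.7 and 20.1 FPKM in RSCs, apart but not called on named transcripts (log2 fold change 1.83, limma unadjusted p = 0.014), and called with unnamed ones (1.21, unadjusted p = 0.00051).

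**Figure D3:**
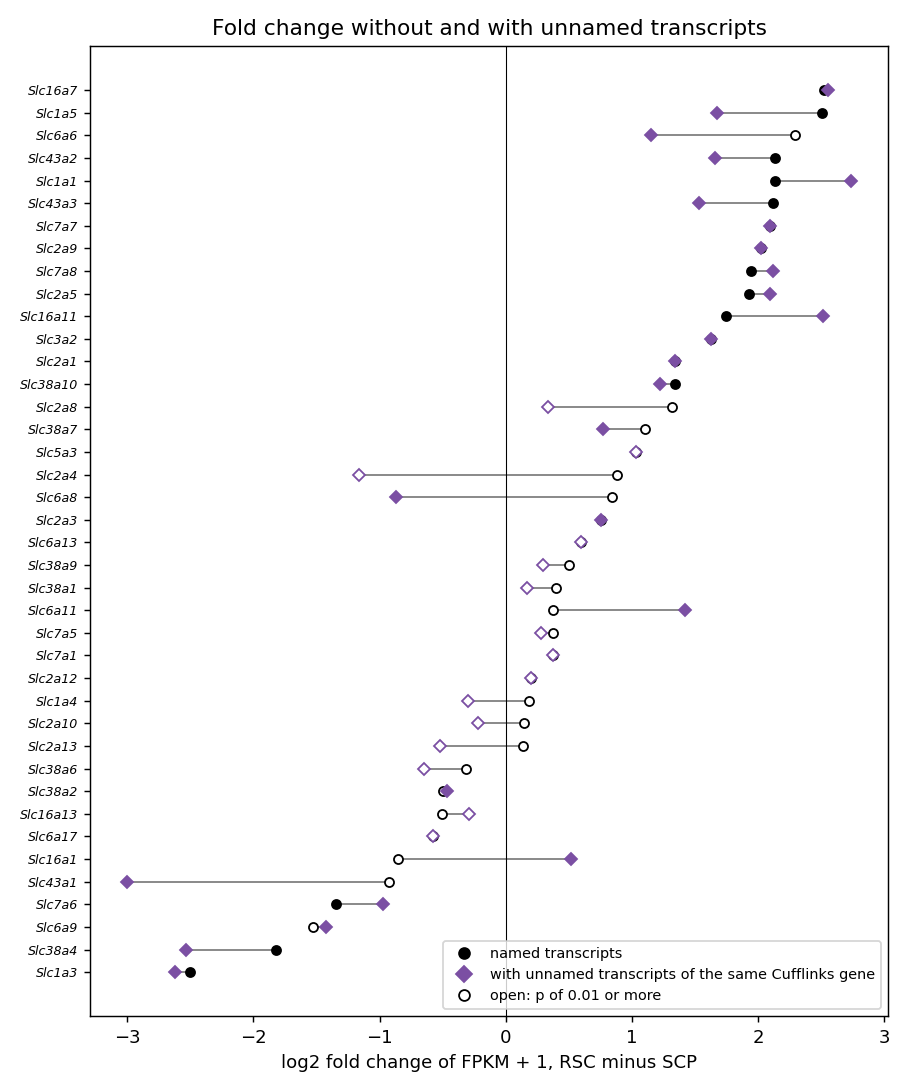
Log2 fold change of FPKM + 1, RSC minus SCP, for 40 of the 42 tested transporter genes, on named transcripts (circles) and with unnamed transcripts of the same Cufflinks gene (diamonds), where filled symbols passed p under 0.01. With unnamed transcripts Slc16a1, Slc6a8, Slc2a4, Slc1a4, Slc2a10 and Slc2a13 change sides of 0 and Slc43a1 moves from -0.93 to -3.0.

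The 51 transporter genes that were not tested stayed low. Of these, 13 were listed at 0 in every sample and the other 38 had means of at most 0.905 FPKM, with no single value above 1.96 FPKM. Slc5a7, the choline transporter of cholinergic neurons, stood at 0.859, 1.22 and 1.38 FPKM in SCPs and was listed at 0 in all RSC samples. Counting unnamed transcripts brought 4 of the 51 to a mean of 1 FPKM or more. Among them Slc7a2 (CAT-2), an arginine carrier known from activated macrophages, then stood at 2.24, 1.74 and 0.993 FPKM in SCPs and 4.58, 4.34 and 4.32 FPKM in RSCs and was called (log2 fold change 1.05, limma unadjusted p = 0.0018). Slc5a6, a carrier of biotin and pantothenate, stood at 11.7, 10.6 and 9.47 FPKM in SCPs and 6.69, 7.14 and 6.04 FPKM in RSCs and was called higher in SCPs (log2 fold change -0.60, limma unadjusted p = 0.0026). Slc2a6 and Slc3a1 were not called, and the unnamed transcripts at Slc2a6 overlap Cacfd1.

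**Figure D4:**
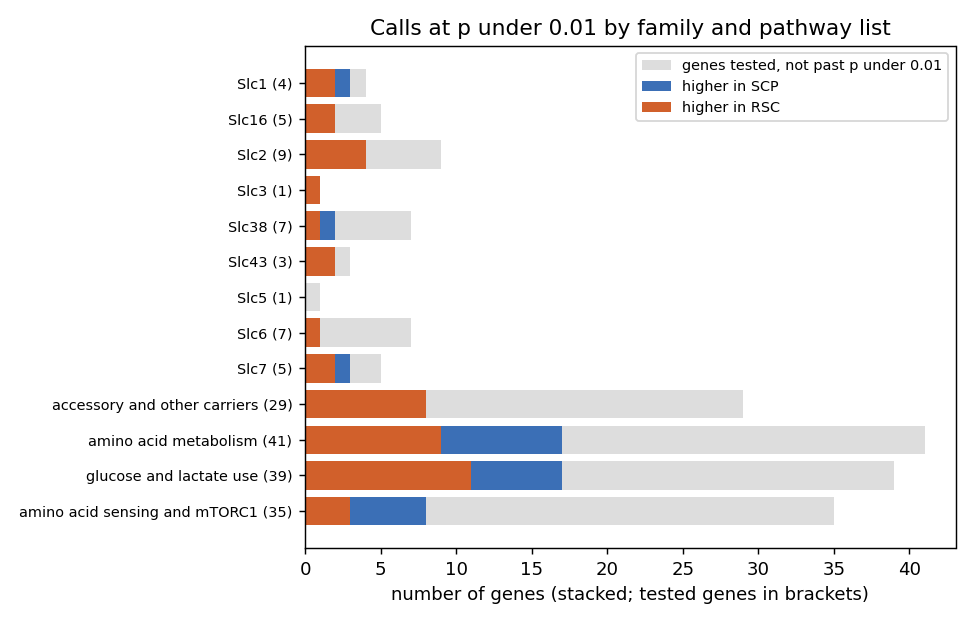
Number of tested genes in each transporter family and in 4 lists of related genes, stacked as higher in RSC, higher in SCP and not past p under 0.01, with the number tested in brackets. Calls in favour of SCPs are 1 each in Slc1, Slc7 and Slc38, and the list of accessory and other carriers has 8 calls, all in favour of RSCs.

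Genes that work beside these transporters were counted in 4 lists, to be read against the 18.1% of all tested genes that were higher in RSCs and the 22.4% higher in SCPs (23.2% and 34.2% with unnamed transcripts). Of the accessory proteins and other carriers, 29 of 39 were tested, with 8 higher in RSCs and none in SCPs, and a median log2 fold change of 0.88 against -0.17 over all tested genes. Slc15a3, a lysosomal carrier of histidine and peptides known from immune cells, was listed at 0 in all SCP samples and stood at 29.3, 36.6 and 41.0 FPKM in RSCs. Slc50a1, a sugar carrier, had a log2 fold change of 1.93 (SE 0.19), and 1.04 with unnamed transcripts. The basigin relative Nptn stood at 30.6, 36.5 and 37.3 FPKM in SCPs and 109, 103 and 107 FPKM in RSCs. The mitochondrial pyruvate carrier showed unequal changes of its subunits. Mpc1 stood at 41.9, 35.0 and 40.8 FPKM in SCPs and 103, 107 and 89.2 FPKM in RSCs (log2 fold change 1.32, SE 0.11, limma adjusted p = 0.00033), while Mpc2 stood at 42.4 to 52.5 and 34.9 to 45.8 FPKM (log2 fold change -0.19, SE 0.14) and was not called. With unnamed transcripts 12 genes of this list were higher in RSCs and 4 in SCPs.

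Amino acid metabolism gave 9 of 41 tested genes higher in RSCs and 8 in SCPs, shares near those of all tested genes, and a median log2 fold change of 0.05. With unnamed transcripts 10 were higher in RSCs and 16 in SCPs. Gatm, which makes the creatine precursor, had a log2 fold change of 2.95 (SE 0.34), Cth, which makes cysteine, had 2.29 (SE 0.20), and Glul, which makes glutamine, stood at 43.2, 36 and 42.3 FPKM in SCPs and 141, 153 and 136 FPKM in RSCs. Cdo1, which breaks cysteine down, went the other way, with 13.9, 17.0 and 26.8 FPKM in SCPs and 0.497, 1.21 and 0.627 FPKM in RSCs (log2 fold change -3.48, SE 0.30, limma adjusted p = 0.00035). Gldc, of glycine breakdown, had -1.37 (SE 0.20) and Phgdh, the first enzyme of serine synthesis, -1.20 (SE 0.10).

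Glucose and lactate use gave 11 of 39 tested genes higher in RSCs and 6 in SCPs, with a median log2 fold change of -0.02. With unnamed transcripts 16 were higher in RSCs and 11 in SCPs. Hk3, the hexokinase known from myeloid cells, stood at 0.0609, 0.114 and 0.162 FPKM in SCPs and 8.13, 7.13 and 6.63 FPKM in RSCs. Sord, of the polyol pathway, had a log2 fold change of 2.73 (SE 0.58), and 1.57 with unnamed transcripts. Pfkfb1, which sets the level of a glycolysis activator, had -1.30 (SE 0.24) and the aldolase Aldoc -1.21 (SE 0.20). Amino acid sensing and mTORC1 gave 3 of 35 tested genes higher in RSCs and 5 in SCPs, with a median log2 fold change of 0.03. This split turned to 6 and 2 with median-of-ratios scaling and was 7 and 8 with unnamed transcripts. Lamtor4 and Rragc, which hold mTORC1 at the lysosome, had log2 fold changes of 1.02 (SE 0.12) and 0.92 (SE 0.14). Nprl2, of the inhibitory GATOR1 complex, had -0.99 (SE 0.16), and -0.55 with unnamed transcripts, which was not called (limma unadjusted p = 0.015). The amino acid sensor kinase Eif2ak4 (GCN2) had -1.93 (SE 0.47) on named transcripts but -0.36 with unnamed ones, which was not called (limma unadjusted p = 0.14).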

How the data were processed

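RNA of 3 SCP and 3 RSC preparations was sequenced by the authors as stranded paired-end mRNA libraries. The submitters' processing notes name FastQC 0.11.2, TopHat2 2.1.0, Cufflinks 2.2.1 and rn6. The authors deposited 1 Cufflinks table per sample, with FPKM and read coverage (signal) of each transcript. Without counts or strand, absolute depth is unknown and no count test was run. Coverage per FPKM, a relative measure of depth with the deepest sample set to 1.00, lay between 0.88 and 1.00 for SCPs and between 0.79 and 0.84 for RSCs. Transcripts whose names had become dates were left out (77 for each sample). Starts count from 1.

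Genes whose mean reached 1 FPKM were compared with limma 3.58.1 (R 4.3.3), two-sided, with a variance trend, a pseudocount of 1 and no replicate block, by a script tested on simulated data, and files were read with pandas 2.3.3. The genes and lists were chosen with earlier results of these data known. Described in full were genes over 4-fold, the highest of each family, and genes listed at 0 in 1 group with a mean of at least 1 FPKM in the other. Also described were all tested light chains, Slc16 and Slc38 genes, and up to 2 genes per list and direction. The list genes Nptn, Glul, Phgdh, Bsg, Emb, Mpc1 and Mpc2 were given beyond that number. Alternatives are given in the closing section. Counting unnamed transcripts within a Cufflinks gene was chosen after seeing the data. Some genes that meet the conditions for a full description are not reported here.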

Additional observations from a re-analysis of the deposited data

Results flagged for a closer look

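Slc5a6 was flagged because its signal lay outside the named transcripts that the comparisons use. Its named transcripts were listed at 0 in all 6 samples, while unnamed transcripts that Cufflinks put in the same gene had a mean of 8.61 FPKM. In RSC replicate 1 these transcripts also overlap the gene Atraid. No outlier test applies to groups of 3.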

How the results depend on the processing

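Of the 18 called transporter genes none reversed and 14 were called in all settings tried. The exceptions were Slc2a3 and Slc7a6 (10 settings each), Slc16a11 (pseudocount of 0.1) and Slc43a3 (without RSC replicate 2). Transporter genes higher in RSCs numbered 7 at a mean of at least 5 FPKM, where fewer genes are tested, and 14 to 15 with 1 sample left out. Those higher in SCPs numbered 9 with no filter, 7 with unnamed transcripts added by overlap, 8 with those of the same Cufflinks gene, and 2 to 3 with 1 sample left out. Over 4-fold in RSCs there were 4 at a mean of at least 5 FPKM, 4 for the highest transcript per symbol and 5 to 10 with 1 sample left out (5 without RSC replicate 2). Over 4-fold in SCPs there were 2 at a pseudocount of 0.1, 4 by overlap, 3 by Cufflinks gene and 1 to 2 with 1 sample left out (2 without SCP replicate 2). Of all tested genes, 4789 were higher in SCPs by Cufflinks gene.

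Accessory and other carriers gave 5 to 9 higher in RSCs with 1 sample left out (5 without RSC replicate 2). Higher in SCPs they gave 0 on named transcripts (limma), 1 with no filter, 1 with quantile normalization, 2 with no variance trend, 2 with values of 0 set to missing, 4 in both counts of unnamed transcripts and 0 to 1 with 1 sample left out (1 without RSC replicate 1 or 3). Amino acid metabolism gave 13 higher in SCPs by overlap and 16 by Cufflinks gene. Glucose and lactate use gave 7 higher in RSCs at an adjusted p under 0.01, 7 to 11 with 1 sample left out (7 without RSC replicate 1 or 3), and 11 higher in SCPs by Cufflinks gene. Amino acid sensing gave 6 higher in RSCs with median-of-ratios scaling, 5 by overlap and 7 by Cufflinks gene. Higher in SCPs it gave 2 with that scaling, 2 with the replicate block, 2 at an adjusted p under 0.01, 8 by Cufflinks gene and 2 to 5 with 1 sample left out (2 without SCP replicate 2, 3 without SCP replicate 1 or 3 or RSC replicate 3).

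The share of Slc1a3 in its family was 57.9% in SCPs by Cufflinks gene. That of Slc1a5 was then 26.5% in SCPs and 71.7% in RSCs, and 73.0% in RSCs by overlap. Slc2a1 held 35.5% in SCPs and 61.4% in RSCs by overlap and 41.4% and 62.6% by Cufflinks gene. Slc38a2 held 70.8% in SCPs and 55.4% in RSCs for the highest transcript, and 77.5% and 57.0% by overlap.

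Some genes that were not called changed sign. In both counts of unnamed transcripts the log2 fold change was 0.52 for Slc16a1, -0.30 for Slc1a4, -0.22 for Slc2a10, -0.52 for Slc2a13 and -1.16 for Slc2a4, and for Slc6a8 it was -0.95 by overlap and -0.87 by Cufflinks gene. With 1 sample left out it ranged from -0.21 (without SCP replicate 2 or 3) to 0.66 for Slc1a4, from -0.24 (without SCP replicate 1) to 0.35 for Slc2a10, from -0.26 (without SCP replicate 2) to 0.55 for Slc2a13, from -0.68 to 0.010 (without SCP replicate 1) for Slc38a6, from -0.094 (without RSC replicate 3) to 1.17 for Slc6a11, and from -0.51 (without SCP replicate 2) to 1.69 for Slc6a8. It was -0.011 for Slc2a10 with quantile normalization, -0.19 for Slc6a11 at a pseudocount of 0.1 and -0.51 for Slc6a8 with values of 0 set to missing. The cause of these changes was not tested.

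Samples with the same replicate number did not deviate together (r = 0.044, -0.0049 and 0.026). This check sees only deviations shared across genes, so it cannot tell whether same-numbered preparations were handled as a set. With the replicate block 14 transporter genes were higher in RSCs and 4 in SCPs, and over 4-fold 8 and 1. Since depth is unknown, no counting error can be given for single low values.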
